A study of Mus musculus with 6 samples.

Results

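The semaphorins, plexins and neuropilins are a family of guidance ligands and their receptors, and they were read out here in embryonic mouse submandibular gland with and without blebbistatin. Members were the genes of the deposited expression table whose symbol is Sema3 to Sema7 with a letter, Plxna to Plxnd with a number, Plxnc1, Plxnd1, Nrp1 or Nrp2. This rule took 31 of 24067 genes, of which 20 are semaphorin ligands, 9 are plexins and 2 are neuropilins. The glands came from ICR mouse embryos at E13 (embryonic day 13), and 3 RNA-seq libraries labelled control were compared with 3 labelled blebbistatin, an inhibitor of non-muscle myosin II. No genotype other than the ICR strain is given for either group, and both groups share age and tissue. Not given in the sources used here are dose, time in the drug, what control glands received and how many glands made up a library. The tissue label names the gland, whereas the title of the series speaks of its epithelial buds. No label says that the libraries of a group were separate cultures, so the p-values cover only the differences between these libraries, and those may be technical.

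Semaphorins share a sema domain through which they bind plexins. Class 3 semaphorins are secreted, and most of them bind a neuropilin that holds a class A plexin as the signalling partner. Classes 4, 5 and 6 span the membrane, with plexin B receptors for much of class 4 and plexin A receptors for class 6, and Sema7a is tethered to the membrane by a lipid anchor. Inside the cell plexins carry a GTPase-activating domain for Ras-family GTPases, and plexin B receptors also recruit exchange factors that act on RhoA, upstream of actomyosin contraction. In explants of this gland, class 3 semaphorins acting through Nrp1 have been linked to the formation of the clefts that divide the buds.

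The estimated depth was 27700000 to 33800000 fragments per library, and 11453 to 11592 genes reached 1 FPKM (fragments scaled to transcript length and to the total of the library). All 14 epithelial markers on the list used here passed the filter for testing, and their summed FPKM was 1626 to 2043 in controls and 1572 to 2052 with blebbistatin. Of 12 endothelial markers 11 were under 1 FPKM in every library, and the list summed to 8.37 to 15.2 FPKM in controls and 8.23 to 9.66 with blebbistatin, mostly from Egfl7. Sox17 was listed at 0 in all 6 libraries and Cdh5 in the 3 treated ones, whereas Pecam1 (0.303 to 0.382 and 0.422 to 0.553 FPKM, controls first) and Tek (0.193 to 0.220 and 0.362 to 0.375 FPKM) were higher in every treated library. Ptprc, which marks leukocytes, did not exceed 0.047 FPKM. The summed mesenchymal list spanned 298 to 370 FPKM in controls and 350.2 to 394 with blebbistatin and was mostly Vim. Of its 6 tested genes, 3 had the higher and 3 the lower mean with blebbistatin, all with overlap. Pdgfra, under the filter, was lower in every treated library, at 0.626 to 1.03 FPKM in controls and 0.418 to 0.558 with blebbistatin. The summed list of Schwann cell and glial markers was lower with blebbistatin, at 196 to 246 against 307 to 343 FPKM. It was carried by Sox10 (212 ± 5.42 and 143 ± 19.9 FPKM, SD, n = 3 each) and Erbb3 (80.7 ± 8.04 and 53.1 ± 1.39 FPKM, SD, n = 3 each). Erythroid genes summed to between 1.12 and 246 FPKM, with overlap between groups. What part of the differences in the family goes with the glial markers was not tested. In bulk RNA, fewer cells of a type and less RNA per cell cannot be told apart.

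A total of 19 members, 13 ligands and 6 receptors, had a mean of at least 1 FPKM over the 6 libraries and were tested among 11540 genes with limma on log2(FPKM + 1), and the other 12 lay under that level. None of the 19 passed a Benjamini-Hochberg adjusted p of 0.05, which 9 of the genes tested (0.078%) passed, 0.0433% on the lower and 0.0347% on the higher side. Unadjusted p-values under 0.05 were found for 3 members, the ligands Sema3b, Sema4a and Sema6a, each with the lower mean in blebbistatin, whereas 9.36% of the genes tested had such a p, 4.9% with a lower and 4.46% with a higher mean. The same 3 genes were below that p when any 1 library was left out. The groups did not overlap for 5 of the 19 members, against 14.3% of all genes tested. On the lower side there were 3, Sema3b, Sema4a and Sema6a (6.8% of all genes tested), and on the higher side 2, Sema5a and the receptor Plxna2 (7.48%).

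Most tested ligands had the lower mean with blebbistatin, whereas the receptors had no side that held without treated replicate 1. The difference between ligands and receptors was not tested. Of 13 ligands, 11 had the lower mean, with a median log2 difference of -0.14, and 10 to 12 had it when 1 library was left out. Of 6 receptors, 4 had the higher mean, with a median of 0.17. Without treated replicate 1, 5 receptors were tested, 2 had the higher mean and the median was -0.0057. Without control replicate 3 or treated replicate 2, all 6 had the higher mean. Over all genes tested the median was 0.01 and 44.8% had the lower mean. All log2 differences are blebbistatin minus control on the log2(FPKM + 1) scale, which understates the change of genes near 1 FPKM.

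**Figure D1:**
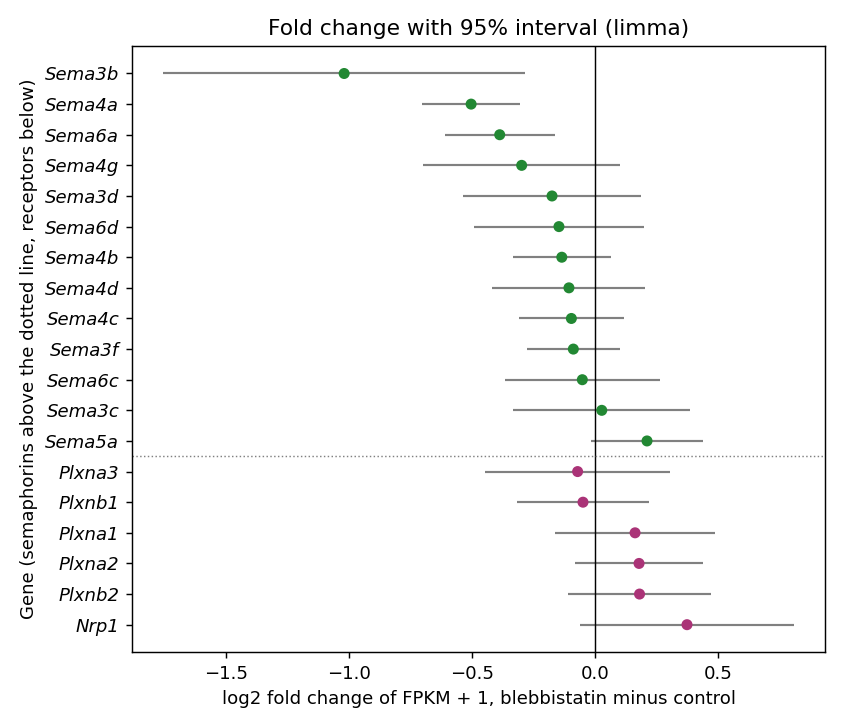
Log2 difference of each of the 19 tested members, blebbistatin minus control on the log2(FPKM + 1) scale, with bars for the 95% confidence interval from limma and ligands and receptors set apart. The intervals of Sema3b, Sema4a and Sema6a lie below 0, and those of all 6 receptors include it.

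Sema3b and Sema3f led the secreted class 3 ligands. Sema3b, a secreted semaphorin that binds neuropilins, was the ligand with the highest level in controls. It is encoded on chromosome 9 at 107597674 to 107609241 (mm10, minus strand), with 6 transcripts in the table. Sema3b stood at 124, 131 and 133 FPKM in the 3 controls and at 33.8, 89.3 and 83.1 FPKM in the 3 blebbistatin libraries. All treated libraries were below all controls, and treated replicate 1 lay far below the other two. The means were 129 ± 4.30 and 68.7 ± 30.4 FPKM (SD, n = 3 each), 1.88-fold lower with blebbistatin. The log2 difference was -1.02 ± 0.32 (SE, 95% interval -1.76 to -0.29), with an unadjusted p of 0.0125 and an adjusted p of 0.294. Without treated replicate 1 the difference was -0.58. Since FPKM is per transcript length, levels of different ligands can be added, and Sema3b made up 33.0 ± 0.361% (SD, n = 3) of the summed ligand FPKM in controls. With blebbistatin its share was 12.8, 27.8 and 26.3% in replicates 1, 2 and 3.

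Sema3f, another secreted ligand, which prefers Nrp2, was the ligand of second rank in controls and lies 72.3 kb from Sema3b on the same strand of chromosome 9, at 107681502 to 107710475. Its values were 62.8, 60.1 and 65.2 FPKM in controls and 57.4, 58.3 and 61.0 FPKM with blebbistatin. The groups overlapped, and the log2 difference of Sema3f was -0.09 ± 0.08 (SE, 95% interval -0.28 to 0.10, adjusted p = 0.936). Sema3d had means of 18.7 ± 4.04 and 16.3 ± 1.87 FPKM and Sema3c had means of 4.23 ± 0.953 and 4.30 ± 0.652 FPKM (SD, n = 3 each, controls first), with overlap between groups for both. Sema3a, the class 3 ligand best known for collapsing growth cones through Nrp1, stayed between 0.402 and 0.649 FPKM in all 6 libraries. Summed over the 7 class 3 genes, FPKM was 206, 219 and 222 in controls and 110.4, 171 and 165 with blebbistatin. Without Sema3b the sums were 81.1, 87.8 and 89.8 in controls and 76.6, 81.4 and 82.3 with blebbistatin, and the groups then overlapped.

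**Figure D2:**
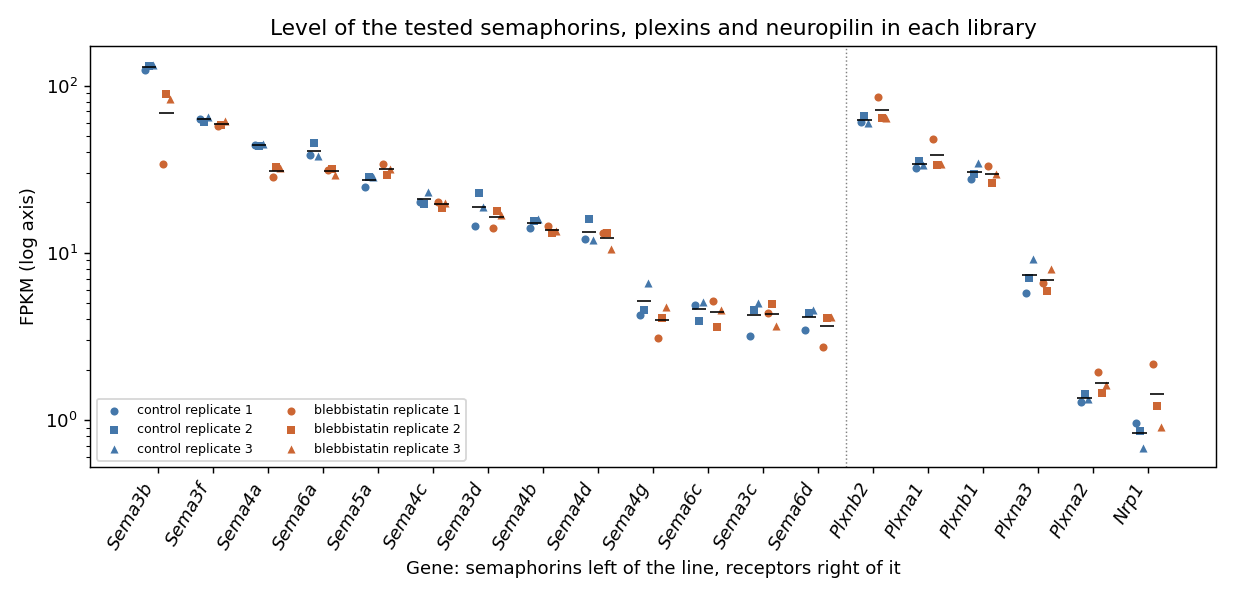
FPKM of the tested members in each library on a log axis, with controls in blue, blebbistatin in orange, a short line at each group mean and ligands left of the receptors. Sema3b leads the ligands in controls with 124 to 133 FPKM, and Plxnb2 leads the receptors with 59.7 to 85.2 FPKM over all 6 libraries.

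Sema4a led the transmembrane class 4 ligands and had the smallest p of the family. Sema4a is best known from immune cells and retina, where it signals through plexins and other receptors. Its values were 43.8, 43.7 and 44.8 FPKM in controls and 28.2, 32.4 and 32.0 FPKM with blebbistatin. Every treated library was below every control, and the gap between groups was wider than the range of either. The means were 44.1 ± 0.571 and 30.9 ± 2.31 FPKM (SD, n = 3 each), 1.43-fold lower with blebbistatin. The log2 difference was -0.50 ± 0.09 (SE, 95% interval -0.70 to -0.30), with an unadjusted p of 0.000374, which ranked 52 of 11540 genes, and an adjusted p of 0.0785. With the replicate number as a block in the fit, Sema4a was the member that passed the threshold (adjusted p = 0.0383), in a fit that called 1.25% of all genes tested. Over all alternatives the log2 difference of Sema4a ran from -0.54 to -0.44 and its adjusted p from 0.0383 to 0.240.

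The gene lies on chromosome 3 at 88435962 to 88461182 (mm10, minus strand). Its 4 RefSeq transcripts have 15 exons each and differ in their first exon, which is noncoding in all of them, and the start codon lies in exon 2, which they share. As annotated, the transcripts therefore differ in promoter and in 5′ UTR. The first exon of NM_013658 was not found in a transcript of GENCODE, another gene annotation, whereas those of NM_001163491, NM_001163490 and NM_001163489 were. The sequences upstream of the 4 starts are printed because the transcript values split by these starts. They are from RefSeq on GRCm38.p6, the assembly also called mm10, run 5′ to 3′ on the minus strand and end at the base before the first exon, with a GC box (GGGCGG or its reverse complement CCGCCC, the core that Sp-family factors bind) in capitals.

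NM_013658, chr3:88455762-88456011: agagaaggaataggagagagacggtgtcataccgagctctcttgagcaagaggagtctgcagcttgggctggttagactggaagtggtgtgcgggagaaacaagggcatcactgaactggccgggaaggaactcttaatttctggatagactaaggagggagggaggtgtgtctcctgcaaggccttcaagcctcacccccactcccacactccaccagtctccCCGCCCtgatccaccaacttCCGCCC

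NM_001163491, chr3:88458885-88458986: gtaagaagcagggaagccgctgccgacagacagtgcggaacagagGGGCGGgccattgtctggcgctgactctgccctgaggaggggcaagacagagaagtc

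NM_001163490, chr3:88459102-88459351: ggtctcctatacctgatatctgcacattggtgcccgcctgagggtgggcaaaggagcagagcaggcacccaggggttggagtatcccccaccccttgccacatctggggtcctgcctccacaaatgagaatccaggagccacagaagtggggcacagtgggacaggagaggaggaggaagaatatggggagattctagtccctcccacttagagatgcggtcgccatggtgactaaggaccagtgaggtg

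NM_001163489, chr3:88461183-88461432: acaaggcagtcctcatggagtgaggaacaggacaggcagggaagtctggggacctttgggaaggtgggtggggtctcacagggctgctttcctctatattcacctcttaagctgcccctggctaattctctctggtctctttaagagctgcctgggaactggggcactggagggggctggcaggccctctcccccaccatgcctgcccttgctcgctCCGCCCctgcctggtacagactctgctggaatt

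The window of NM_001163489 lies upstream of the gene, and the other printed runs lie in the first intron of the transcripts that start farther upstream. The run for NM_001163491 is shorter because the rest of its window holds the first exon of NM_001163490 and bases beyond it. A GC box was found in 3 of the 4 windows, and 32.7% of 32851 RefSeq promoter windows of the same length hold one on either strand. Neither TGANTCA, the AP-1 motif, nor TATAAA nor a CArG box, the site of serum response factor, was found in the 4 windows of 250 bases. GGAATG, the TEAD motif, occurred 1 time, 144 bases upstream of the NM_001163491 start, in the part of that window that is not printed. Among all promoters TGANTCA occurred in 6.75%, TATAAA in 12.4%, a CArG box in 1.47% and GGAATG in 12.6%, on either strand. A match is a description of the letters and not a measured site.

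At transcript level, the most upstream start of Sema4a, NM_001163489, 5421 bases from the most downstream one, stood at 12.9, 16.5 and 19.2 FPKM in controls and at 1.11, 8.87 and 12.6 FPKM with blebbistatin. The low value came from treated replicate 1, and the groups did not overlap (log2 difference -1.37, unadjusted p = 0.0609, adjusted p = 0.649, limma over all transcripts). The most downstream start, NM_013658, stood at 24.4, 22.1 and 19.6 FPKM in controls and at 18.2, 16.3 and 13.4 FPKM with blebbistatin, again without overlap (log2 difference -0.45, unadjusted p = 0.0104, adjusted p = 0.375). NM_001163491 lay on the other side in its mean and overlapped between groups, with 5.996, 4.06 and 5.32 FPKM in controls and 7.46, 6.35 and 4.77 FPKM with blebbistatin. The share of NM_001163489 in the gene was 29.4, 37.6 and 43.0% in controls and 3.94, 27.4 and 39.3% with blebbistatin, and the share of NM_001163491 was 13.7, 9.28 and 11.9% against 26.4, 19.6 and 14.9%. The share of NM_001163491 had an unadjusted p of 0.0302 and an adjusted p of 0.975 with limma on arcsine square root shares. In this test 4.56% of 4997 shares had an unadjusted p under 0.05 and 0% passed the adjusted threshold. The first exon of NM_001163489 is 36 bases long, so the split between starts rests on few bases of sequence of their own.

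**Figure D3:**
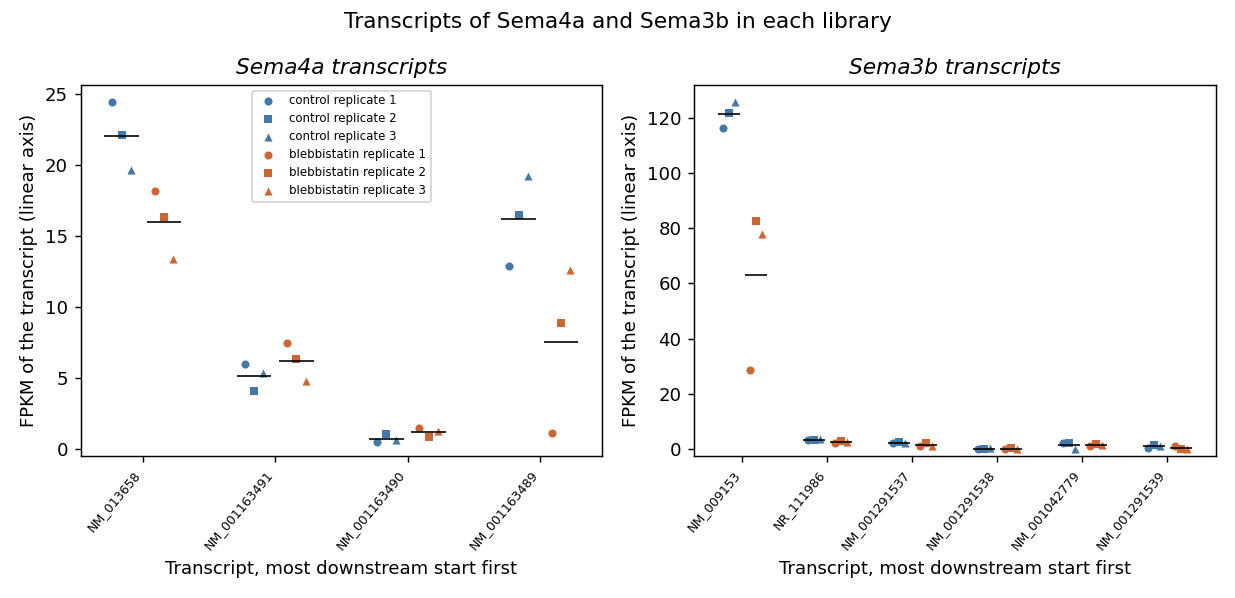
FPKM of the Sema4a and Sema3b transcripts in each library on linear axes, with controls in blue, blebbistatin in orange and a short line at each group mean. NM_009153 carries most of Sema3b in all 6 libraries, and NM_001163489 of Sema4a is lowest in treated replicate 1 at 1.11 FPKM.

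Sema3b had 1 leading transcript. NM_009153 accounted for 93.9% of the gene on average in controls and for 84.4, 92.4 and 94.0% in treated replicates 1, 2 and 3. Its values were 117, 122 and 126 FPKM in controls and 28.5, 82.6 and 78.1 FPKM with blebbistatin (log2 difference -1.08, unadjusted p = 0.0199, adjusted p = 0.464). The order of the libraries was that of the gene. The transcript table held 61 transcripts of the 31 members, and 28 transcripts of 19 members were tested. Of these 28, 4 had an unadjusted p under 0.05, against 8.08% of all transcripts tested, and 0 passed the adjusted threshold, against 0.00692%.

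The other tested class 4 ligands each had a lower mean with blebbistatin and overlapped between groups. Sema4c, a ligand of Plxnb2, had means of 21.0 ± 1.91 and 19.5 ± 0.854 FPKM (SD, n = 3 each, controls first). Sema4b had means of 15.1 ± 0.923 and 13.7 ± 0.753 FPKM, Sema4g of 5.13 ± 1.27 and 3.96 ± 0.840 FPKM, both SD with n = 3 each. Sema4d, the ligand of Plxnb1, had means of 13.3 ± 2.28 and 12.3 ± 1.54 FPKM (SD, n = 3 each). The adjusted p-values of these 4 genes lay between 0.727 and 0.981. The class 4 sum was 95.2, 99.9 and 103 FPKM in controls and 79.6, 81.8 and 81.0 FPKM with blebbistatin, with no overlap and with Sema4a as the largest single contributor.

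Sema6a and Sema5a, both transmembrane ligands of axon guidance, lay on opposite sides. Sema6a, a ligand of Plxna2 and Plxna4 on chromosome 18, stood at 38.5, 45.2 and 37.9 FPKM in controls and at 31.2, 31.7 and 29.0 FPKM with blebbistatin. All treated libraries lay below all controls, 1.32-fold lower in the means of 40.5 ± 4.09 and 30.7 ± 1.43 FPKM (SD, n = 3 each). The log2 difference was -0.39 ± 0.10 (SE, 95% interval -0.61 to -0.16), with an unadjusted p of 0.00386 and an adjusted p of 0.190. Sema6c had means of 4.61 ± 0.633 and 4.43 ± 0.793 FPKM and Sema6d, whose product acts in the heart through Plxna1, of 4.12 ± 0.591 and 3.65 ± 0.783 FPKM (SD, n = 3 each), and both overlapped.

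Sema5a, a class 5 ligand with thrombospondin repeats on chromosome 15 at 32244813 to 32696341, was the 1 tested ligand whose treated libraries all lay above the controls. It stood at 24.6, 28.3 and 28.5 FPKM in controls and at 34.1, 29.0 and 31.8 FPKM with blebbistatin. The gap was narrow, with the highest control next to the lowest treated library. The log2 difference was 0.21 ± 0.10 (SE, 95% interval -0.02 to 0.44), with an unadjusted p of 0.0654 and an adjusted p of 0.589.

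Summed over all 20 ligands, FPKM was 373, 401 and 402 in controls and 264, 321 and 316 with blebbistatin. Without Sema3b it was 248.7, 270.3 and 269.7 in controls and 229.7, 232 and 233 with blebbistatin, so that the groups still did not overlap. That sum still held Sema4a and Sema6a, whose treated libraries all lay below the controls, and no sum was taken without them. It therefore does not show a lower level across the remaining ligands. The class 6 sum was 47.0, 53.7 and 47.8 FPKM in controls and 39.3, 39.6 and 37.9 FPKM with blebbistatin, with Sema6a as the largest contributor. The class 4 sum was not taken without Sema4a, nor the class 6 sum without Sema6a. Every other tested gene of classes 4 and 6 overlapped between groups.

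**Figure D4:**
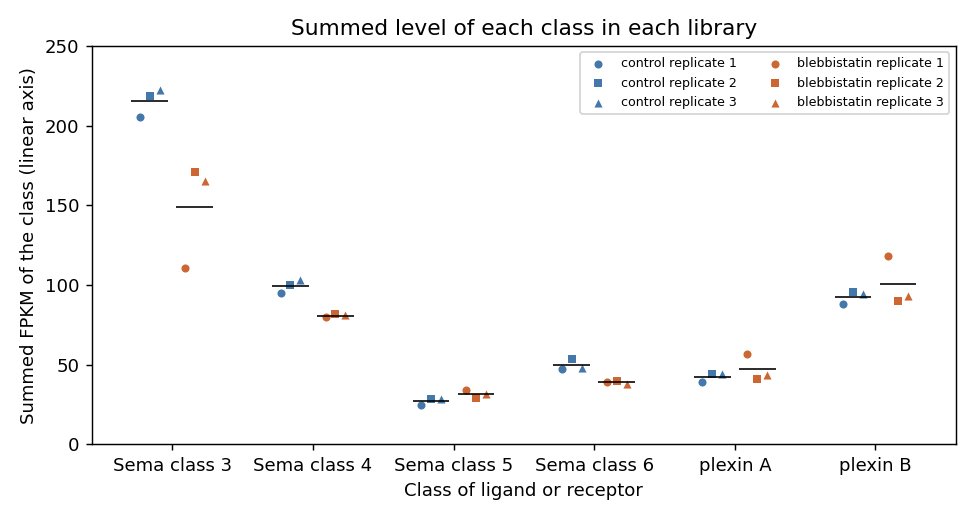
Summed FPKM of each ligand class and plexin group in each library on a linear axis, with controls in blue, blebbistatin in orange and a short line at each group mean. Classes 3, 4 and 6 are lower in all 3 treated libraries, and the plexin sums of treated replicate 1 stand above the other 5 libraries. In classes 3, 4 and 6, Sema3b, Sema4a and Sema6a were the only tested genes whose groups did not overlap.

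Among the receptors 3 plexins carried most of the RNA. Plxnb2, a plexin B receptor of epithelia, made up 45.2% of the summed receptor FPKM in controls, Plxna1, a co-receptor with neuropilins, 24.7%, and Plxnb1, the receptor of Sema4d, 22.2%. Plxnb2 stood at 60.4, 65.7 and 59.7 FPKM in controls and at 85.2, 63.9 and 63.7 FPKM with blebbistatin. Treated replicate 1 was high and the other two lay within the control range. The log2 difference of Plxnb2 was 0.18 ± 0.13 (SE, 95% interval -0.11 to 0.47, adjusted p = 0.836), and 0.043 without treated replicate 1.

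Plxna1 showed the same library pattern, with 32.3, 35.5 and 33.6 FPKM in controls and 48.2, 33.4 and 34.0 FPKM with blebbistatin. Its log2 difference was 0.16 ± 0.14 (SE, 95% interval -0.16 to 0.49, adjusted p = 0.916) and -0.0057 without treated replicate 1. Plxnb1 stood at 27.6, 29.5 and 34.5 FPKM in controls and at 32.8, 26.2 and 29.5 FPKM with blebbistatin, with overlap and a log2 difference of -0.05 ± 0.12 (SE, 95% interval -0.32 to 0.22, adjusted p = 0.995). The interval of Plxnb1 is the bound these data give, and a p above the threshold does not show that the levels were equal.

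Plxna2, a receptor of Sema6a, was the 1 tested receptor without overlap. It stood at 1.28, 1.43 and 1.33 FPKM in controls and at 1.93, 1.44 and 1.62 FPKM with blebbistatin. The highest control and the lowest treated library were 1.43 and 1.44 FPKM, so the separation was minimal. Its log2 difference was 0.18 ± 0.11 (SE, 95% interval -0.08 to 0.44, adjusted p = 0.788), and 0.11 without treated replicate 1. Plxna3 had means of 7.31 ± 1.76 and 6.84 ± 1.07 FPKM (SD, n = 3 each, controls first) and overlapped. Its gene lies on the X chromosome.

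Both neuropilins were low. Nrp1, the co-receptor of class 3 semaphorins and of VEGF, stood at 0.954, 0.861 and 0.680 FPKM in controls and at 2.16, 1.21 and 0.902 FPKM with blebbistatin. The groups overlapped, and treated replicate 1 was again the highest. The log2 difference was 0.37 ± 0.19 (SE, 95% interval -0.06 to 0.81, adjusted p = 0.641), and without treated replicate 1 the gene was under the filter and was not tested. An exon of Nrp1 overlaps Mir1903 on the same strand, so fragments there may be split between them. Nrp2, which did not reach the filter, had means of 0.465 ± 0.104 and 0.528 ± 0.147 FPKM (SD, n = 3 each). In controls the summed neuropilins were 1.10 to 1.54 FPKM, against 206 to 222 FPKM of class 3 ligands and 39.3 to 44.2 FPKM of class A plexins.

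**Figure D5:**
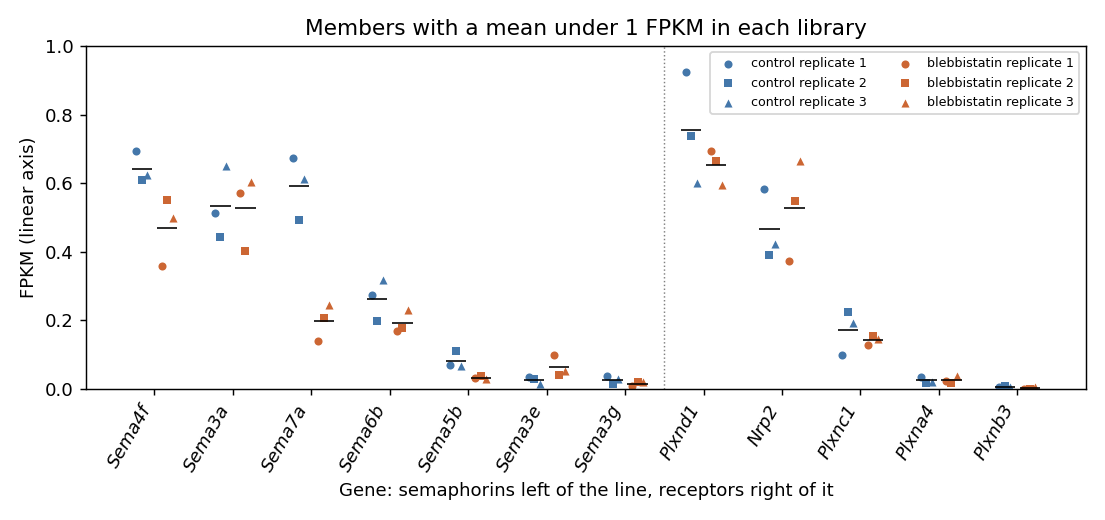
FPKM of the 12 untested members in each library on a linear axis, with controls in blue, blebbistatin in orange and a short line at each group mean. Sema7a, Sema4f and Sema5b lie lower and Sema3e lies higher in all 3 treated libraries, while the other members overlap between groups.

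The 12 members under 1 FPKM had no test in the main fit. Of all genes under the filter that were above 0 in some library, 10.4% had groups that did not overlap, 5.68% on the lower and 4.69% on the higher side. Of the 12 members, 3 did not overlap on the lower side (Sema7a, Sema4f and Sema5b) and 1 on the higher side (Sema3e). Sema7a, the lipid-anchored ligand of Plxnc1 and of beta-1 integrin, stood at 0.673, 0.491 and 0.611 FPKM in controls and at 0.141, 0.206 and 0.244 FPKM with blebbistatin. All treated libraries were below all controls, 3.00-fold lower in the means of 0.592 ± 0.0923 and 0.197 ± 0.0519 FPKM (SD, n = 3 each). These values rested on few estimated fragments, 63, 54 and 57 in the controls and 13, 19 and 22 in the treated libraries. When genes from 0.1 FPKM were tested with a pseudocount of 0.1, an alternative added after the data were seen, the log2 difference of Sema7a on that scale was -1.23 ± 0.24 (SE), with an unadjusted p of 0.000803 and an adjusted p of 0.109. In that fit 26 members were tested and 0 passed, and of all genes 0.0141% passed and 9.56% had an unadjusted p under 0.05.

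Sema4f stood at 0.609 to 0.694 FPKM in controls and at 0.360 to 0.550 FPKM with blebbistatin. Sema5b, at 0.0658 to 0.110 against 0.0278 to 0.0390 FPKM, and Sema3e, at 0.0149 to 0.0352 against 0.0400 to 0.101 FPKM, each rested on at most 20 estimated fragments per library. Among the receptors, Plxnd1, to which Sema3e binds without a neuropilin, was at 0.596 to 0.924 FPKM, Plxnc1 at 0.0979 to 0.225 FPKM and Plxna4 at 0.0181 to 0.0386 FPKM over all 6 libraries. Plxnb3 reached 0.00962 FPKM at most and was listed at 0 in 2 treated libraries. Sema6b spanned 0.170 to 0.317 FPKM and Sema3g 0.00960 to 0.0383 FPKM.

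Genes that act with these receptors were read out from lists of co-receptors, effectors, VEGF ligands and proteases. Of 62 genes 47 were tested, 18 with the higher and 29 with the lower mean, and 0 passed the adjusted threshold. An unadjusted p under 0.05 was found for 9 of the 47, against 9.36% of all genes tested, and the median log2 difference was -0.02. The smallest p was that of Rnd3, a small GTPase that antagonises RhoA signalling. Rnd3 stood at 13.9, 13.4 and 12.3 FPKM in controls and at 28.4, 24.3 and 20.5 FPKM with blebbistatin. The groups were far apart, with a log2 difference of 0.83 ± 0.12 (SE) and an adjusted p of 0.0727, and with a filter of 5 FPKM the adjusted p was 0.0461. Rnd2, of the same branch, lay on the other side, with means of 18.2 ± 2.54 and 13.8 ± 1.34 FPKM (SD, n = 3 each, controls first; log2 difference -0.37, adjusted p = 0.310).

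Met, the hepatocyte growth factor receptor, which associates with plexin B, stood at 3.61, 4.32 and 3.62 FPKM in controls and at 6.59, 4.66 and 4.50 FPKM with blebbistatin (log2 difference 0.35 ± 0.14, SE, adjusted p = 0.458). Cd72, a receptor for Sema4d on B cells, was near the filter with a log2 difference of 0.29 (adjusted p = 0.458). MICAL proteins are redox enzymes that disassemble actin, and CRMP proteins are cytosolic mediators of Sema3a. The list of MICAL and CRMP effectors also held Micall1, Micall2, Cdk5 and Gsk3b, to which that description does not apply. Of its 12 genes 9 were tested and 3 had an unadjusted p under 0.05. Of all genes tested, 9.36% had such a p, 4.9% with a lower mean. These were Micall1 (28.5 ± 3.18 and 21.7 ± 2.55 FPKM), Mical1 (10.5 ± 0.316 and 8.92 ± 0.383 FPKM) and Dpysl5 (31.3 ± 3.21 and 25.5 ± 1.93 FPKM), each with the lower mean in blebbistatin and with adjusted p-values between 0.304 and 0.394 (SD, n = 3 each). Pgf, a VEGF-family ligand, had means of 2.09 ± 0.340 and 1.27 ± 0.159 FPKM (SD, n = 3 each; log2 difference -0.44 ± 0.12, SE, adjusted p = 0.229). Kdr and Flt1, the VEGF receptors of endothelium, were under the filter.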

How the data were processed

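Reads had been handled with TopHat2 2.0.13, Bowtie2 2.2.3 and Cufflinks 2.2.1 on mm10, per the submitters' processing notes. The authors deposited FPKM for genes and for transcripts, per the file headers, and 3 libraries per group were compared. BB in a column name was read as blebbistatin, and an unnumbered column as replicate 1. Depth was estimated from the FPKM that 1 fragment gives in long genes with 1 transcript, since the tables hold no counts. That value was the median within a window set in advance, which bounds the estimate. The depths and the estimated fragments of single genes rest on that window. Fragments from overlapping or similar genes may have been split between them.

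Genes and transcripts with a mean of at least 1 FPKM over 6 libraries were log-transformed as log2(FPKM + 1) and compared by limma 3.58.1 under R 4.3.3 (empirical Bayes with trend, treatment as the only term, Benjamini-Hochberg adjustment over all features tested, threshold 0.05). Transcript shares were tested on the arcsine square root scale for mean shares from 0.05 to 0.95, where the gene was above 0 in each library, had 2 or more transcripts and summed to 5 FPKM or more on average. The code was tested on simulated data. A group is said not to overlap where all its libraries lie beyond all of the other group. Promoter windows were 250 bases upstream, and 26 of 31 members had one in RefSeq.

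Members and gene lists were chosen with earlier results of these data known. Values in each library are given for tested members whose groups do not overlap or whose unadjusted p is under 0.05 and for the 3 highest ligands and receptors, and also for Nrp1, Sema7a, Rnd3 and Met, which were chosen for this after their values were seen. Of the pathway genes, the 8 of smallest p are named. Kdr and Flt1 were added. Alternatives were other filters, pseudocounts, scalings and weights, a replicate block and leaving out each library.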

Additional observations from a re-analysis of the deposited data

How the results depend on the processing

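The number of genes past the threshold was 9 and moved to 1 without a filter, 27 with a minimum of 5 FPKM, 14 after quantile scaling, 2 after median-of-ratios scaling, 57 with array weights, 2 with filter and pseudocount of 0.1 together, and 1 to 19 with 1 library left out. With the replicate block it was 144. The block made 1 member pass (Sema4a) against 0, and 1 pathway gene (Rnd3) against 0. Rnd3 was also the 1 pathway gene to pass with a minimum of 5 FPKM and with array weights, and leaving out 1 library gave 0 to 1. The labels do not say that a number marks a shared litter or day, so the numbers were not taken as pairs in the main fit. Deviations of same-numbered libraries had r of 0.182, 0.094 and 0.253, and each control had its highest r with its own number. Libraries of different numbers had r from -0.245 to 0.08. Whether the numbers mark pairs is therefore not settled, and the main fit ignores any such pairing. Over 278 values of 19 members under the alternatives, 265 kept direction and call and 12 had the other sign. Sema3c was at -0.048 with array weights. With 1 library left out the log2 difference ran from -0.13 to 0.13 for Sema3c, -0.17 to 0.021 for Sema4d, -0.15 to 0.063 for Sema6c, -0.25 to 0.0015 for Sema6d, -0.0057 to 0.25 for Plxna1, -0.21 to 0.087 for Plxna3 and -0.13 to 0.039 for Plxnb1. Members not overlapping between groups numbered 5 to 9 with 1 library left out, when 20 to 27.5% of all genes tested did not overlap. Members at an unadjusted p under 0.05 with limma numbered 3 to 4 in these fits, against 7.41 to 10.7% of all genes tested. Leaving out 1 library leaves 2 in its group, and depth limits the members under 1 FPKM most.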

Other observations

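Sema3b and Sema3f lie in a gene-dense stretch of chromosome 9, and 16 other genes lie within 100 kb of Sema3b. Of these 12 were tested, Sema3f among them, 2 had treated libraries all below the controls (6.8% of all genes tested), and 0 passed the adjusted threshold with limma (0.078% of all), with 1 at an unadjusted p under 0.05 (9.36% of all). That gene was Nat6, an acetyltransferase gene, with a log2 difference of -0.47 (adjusted p = 0.190). The other gene without overlap was Hyal3, of the hyaluronidase family, at -0.22 (adjusted p = 0.623), and Nat6 and Hyal3 overlap in position, so fragments there may be split between them. Gnai2, a G protein subunit gene next to Sema3b, had a log2 difference of -0.31 (adjusted p = 0.535). The log2 differences of the 12 genes ran from -0.47 to 0.02 with a median of -0.11, so none was as far from 0 as Sema3b.

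Of the class 3 ligands 4 lie in series on chromosome 5, in the order Sema3d, Sema3a, Sema3e and Sema3c, with gaps of 808, 422 and 3320 kb. Their control means were 18.7, 0.535, 0.0265 and 4.23 FPKM, so neighbouring genes of 1 class differed widely in level.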
